A study of Mus musculus with 10 samples.

Results

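Perineuronal nets are sheaths of extracellular matrix around neurons, and 9 genes for their core parts were followed in prefrontal cortex, out of 15914 genes in the deposited table. The genes were taken by symbol: the lecticans Acan, Bcan, Ncan and Vcan, the link proteins Hapln1 and Hapln4, tenascin-R (Tnr), and the hyaluronan synthases Has2 and Has3. All 9 were listed. Bulk RNA sequencing covered 10 libraries of prefrontal cortex from wild-type C57BL/6J mice. Photobiomodulation, a light treatment that the design names as laser, followed hypobaric hypoxia (low oxygen at lowered air pressure) in 5 of them, written hypoxia + PBM. The other 5, written hypoxia, had the hypobaric hypoxia alone. All mice had thus been exposed to hypoxia, and animals at normal air pressure are not part of the comparison, so the values speak to photobiomodulation after hypoxia and not to hypoxia itself. The labels give no age, sex, light dose or dissection border. They do not tie libraries to separate animals either, and the p-values then measure the spread between libraries, which may be technical.

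In a perineuronal net, hyaluronan synthases spin long hyaluronan chains at the cell surface. Lecticans, the chondroitin sulfate proteoglycans of the family, bind hyaluronan at one end, link proteins lock that bond, and tenascin-R joins lecticans to each other at the far end. In the cortex such nets surround mainly fast-spiking interneurons that express parvalbumin, where they are known for closing periods of plasticity and for steadying inhibitory synapses. In bulk tissue fewer cells of a type and less RNA per cell cannot be told apart, and glia also make several of these matrix genes.

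Levels are given in FPKM, fragments that the authors scaled to the length of the gene and to the depth of the library. Between 29283937 and 35957148 reads on listed genes lay behind each library, with 33958275 ± 2003490 reads in hypoxia + PBM and 31592517 ± 2161680 in hypoxia (SD, n = 5 each; two-sided exact permutation p = 0.103). Tests were run across 14406 genes by limma-trend on log2(FPKM + 1), and a gene was called when its Benjamini-Hochberg adjusted p lay under 0.05. At that threshold 2.85% of all tested genes were called, 1.15% higher and 1.7% lower in hypoxia + PBM. The median log2 change over all tested genes was 0.00011.

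Lectican and link protein genes sit beside each other in the mouse genome: in RefSeq's list of protein-coding genes Vcan follows Hapln1 on chromosome 13, Bcan lies next to Hapln2 on chromosome 3, Acan next to Hapln3 on chromosome 7 and Ncan next to Hapln4 on chromosome 8. RefSeq promoter sequences (build GRCm38.p6) were matched for 6 of the 9 genes (Tnr, Bcan, Acan, Ncan, Hapln1 and Vcan). The 250 bases before the transcript start are shown for Hapln1 and Tnr, which had the largest changes on the log2(FPKM + 1) scale, and for Vcan, the neighbour of Hapln1 whose level did not pass the test. Capitals mark matches, on either strand, to the motifs searched. The Hapln1 window is chr13:89540386-89540635 on the plus strand, the Tnr window chr1:159523519-159523768 on the plus strand and the Vcan window chr13:89742513-89742762 on the minus strand.
Hapln1: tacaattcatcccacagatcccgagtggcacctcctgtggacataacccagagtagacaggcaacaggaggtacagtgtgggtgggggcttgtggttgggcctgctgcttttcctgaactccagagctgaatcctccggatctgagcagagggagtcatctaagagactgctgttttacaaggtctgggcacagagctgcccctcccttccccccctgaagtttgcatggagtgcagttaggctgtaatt
Tnr: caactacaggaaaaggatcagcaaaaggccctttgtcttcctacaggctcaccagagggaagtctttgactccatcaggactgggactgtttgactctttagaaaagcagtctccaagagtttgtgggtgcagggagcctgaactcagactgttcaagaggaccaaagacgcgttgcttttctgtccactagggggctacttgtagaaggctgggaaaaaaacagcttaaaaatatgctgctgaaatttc
Vcan: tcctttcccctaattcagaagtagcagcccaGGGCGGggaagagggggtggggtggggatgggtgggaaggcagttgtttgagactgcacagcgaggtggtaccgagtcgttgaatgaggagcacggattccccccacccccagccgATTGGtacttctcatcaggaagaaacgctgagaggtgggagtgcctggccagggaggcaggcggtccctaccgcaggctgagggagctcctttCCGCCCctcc

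Short motifs, 7 in all, were searched in those windows on both strands. Among core promoter elements these were the TATA box with the letters TATAAA, the CCAAT box and the GC box, which reads GGGCGG. Among sites of regulated factors they were the E-box, which reads CACGTG and contains the next motif, and the core of hypoxia-inducible factor sites, which reads ACGTG. The CRE, the cyclic AMP response element, was searched as TGACGTCA. The AP-1 site was searched with its letters TGACTCA. The Hapln1 and Tnr windows held none of them, which says only that these letters are not in these stretches. The Vcan window held a CCAAT box and 2 GC boxes. Over 32851 windows of the same length, a CCAAT box was found in 33.9%, a GC box in 32.7%, the hypoxia-inducible factor core in 16.6%, a TATA box in 12.4%, an E-box in 6.02%, an AP-1 site in 4.46% and a CRE in 1.55%. G and C made up 54.4% of the Hapln1 window, 46.8% of the Tnr window and 62.4% of the Vcan window.

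The 9 genes spanned a wide range of levels. Brevican (Bcan), the short lectican made largely by glia, was the most abundant, with 49.3 to 54.0 FPKM over the 10 libraries, above 92.1% of the listed genes. Hapln4, a link protein of nets around fast-spiking neurons, followed with 29.3 to 37.9 FPKM, and neurocan (Ncan), a lectican of neurons and astrocytes, with 21.5 to 29.9 FPKM. The ranges of Hapln4 and Ncan overlapped only at their edge, and within every library Hapln4 was at least 1.11 times Ncan. Tnr, made mainly by oligodendrocyte lineage cells and some interneurons, had 5.16 to 8.26 FPKM and Hapln1 3.99 to 6.10 FPKM, with overlapping ranges. Versican (Vcan), a lectican of oligodendrocyte precursors and vessels, had 0.754 to 1.05 FPKM. Aggrecan (Acan), the lectican that defines most cortical nets, had only 0.145 to 0.343 FPKM, above 15.4% of the listed genes. Has3 overlapped it, with 0.108 to 0.243 FPKM, and Has2 was lowest, with 0.00682 to 0.0743 FPKM. The neighbours in this order that overlapped over the 10 libraries were therefore Hapln4 and Ncan, Tnr and Hapln1, and Acan and Has3.

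**Figure D1:**
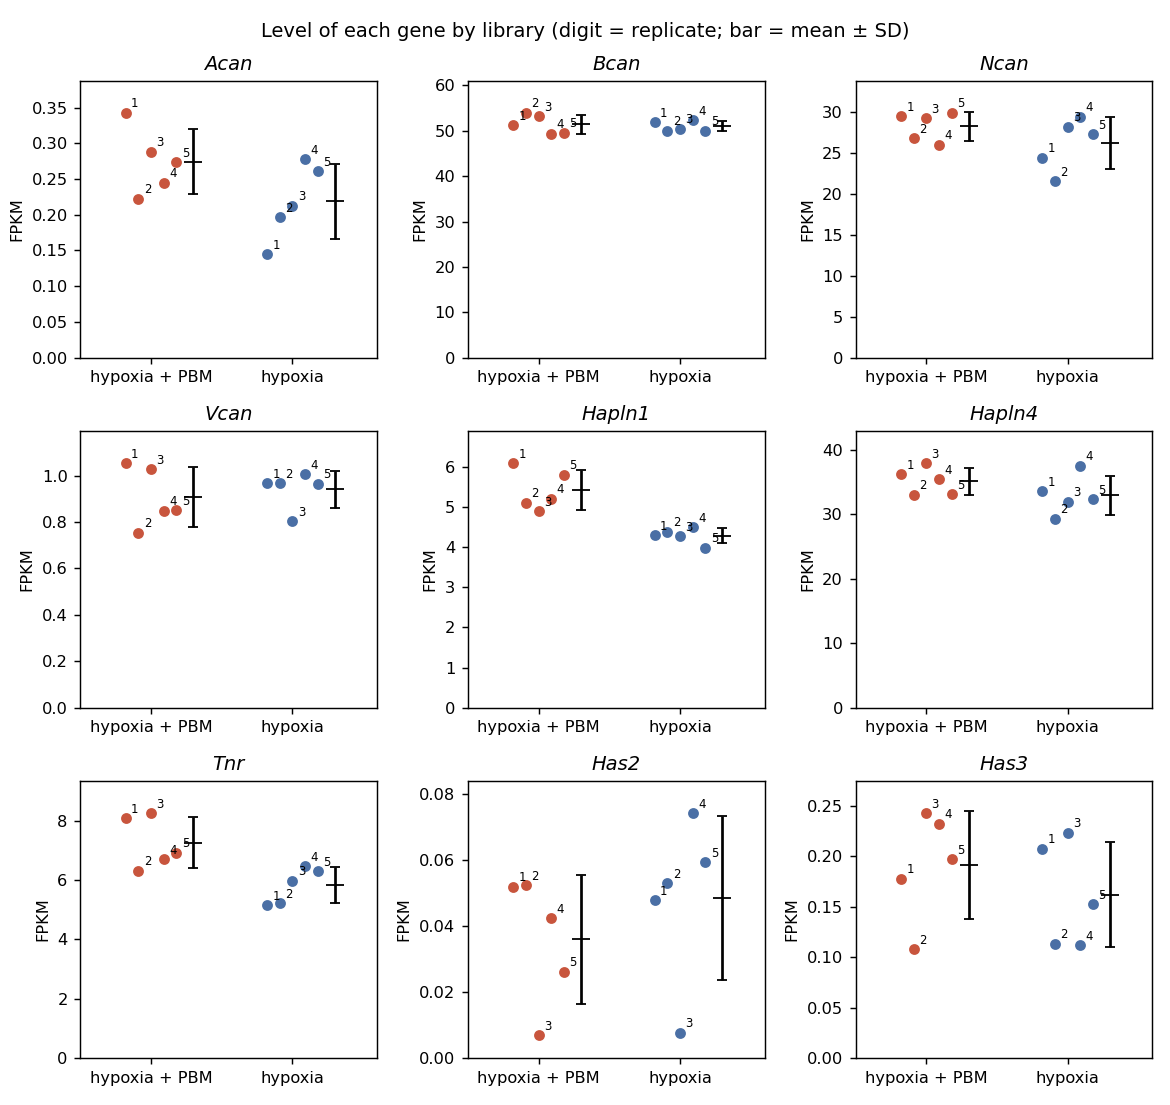
Level in FPKM (y axis, from 0) of each of the 9 genes in the 5 hypoxia + PBM libraries (left, red) and the 5 hypoxia libraries (right, blue); digits are replicate numbers and bars the mean ± SD. Hapln1 is the gene whose groups do not meet, with a lowest hypoxia + PBM value of 4.90 and a highest hypoxia value of 4.50 FPKM.

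Of the link proteins, Hapln1 was called higher in hypoxia + PBM than in hypoxia, and Hapln4 did not pass the test. Hapln1 ties lecticans to hyaluronan and is needed for compact nets in mice. It was at 6.10, 5.11, 4.90, 5.21 and 5.80 FPKM in the 5 hypoxia + PBM libraries, against 4.30, 4.38, 4.27, 4.50 and 3.99 FPKM in the hypoxia libraries. Every hypoxia + PBM library lay above every hypoxia library, and replicates 1 and 5 of hypoxia + PBM were the highest. The means were 5.42 ± 0.505 FPKM in hypoxia + PBM and 4.29 ± 0.190 FPKM in hypoxia (SD, n = 5 each), a 1.26-fold difference. The log2 change was 0.28 ± 0.057 (SE; 95% interval 0.15 to 0.40; limma adjusted p = 0.0224). Of the 8 genes of the set that could be tested, Hapln1 was the 1 that was called, beside a background of 2.85% of all tested genes, and its rank by p was 189 among all tested genes. Groups without overlap, as for Hapln1, occurred in 5.53% of all tested genes and in 2.67% with hypoxia + PBM above. Between 828 and 1140 reads per library supported the gene in hypoxia + PBM and between 652 and 803 in hypoxia. The call was lost without hypoxia + PBM replicate 1 (limma adjusted p = 0.0536), hypoxia replicate 1 (0.0511) or hypoxia replicate 5 (0.0593), while the log2 change stayed between 0.24 and 0.31 across the 10 leave-one-library-out fits. The call was also lost with replicate number as a block (limma adjusted p = 0.0617). With the striatal marker mean described further on as a covariate, Hapln1 was not called either (limma adjusted p = 0.781). In the authors' deposited table its fold change was 1.27 with a q-value of 0.000148, where 6.4% of the listed genes had a q-value under 0.05.

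Hapln4, known in mice for its place at perisynaptic nets, was at 36.2, 33.0, 37.9, 35.4 and 33.1 FPKM in hypoxia + PBM and at 33.6, 29.3, 32.0, 37.5 and 32.4 FPKM in hypoxia. The groups overlapped, with hypoxia replicate 4 above 4 of the 5 hypoxia + PBM libraries. Its log2 change was 0.093 ± 0.059 (SE; 95% interval -0.034 to 0.22; limma adjusted p = 0.417). The ratio of Hapln4 to Hapln1 in FPKM was 6.53 ± 0.806 in hypoxia + PBM and 7.68 ± 0.643 in hypoxia (SD, n = 5 each), with overlapping ranges of 5.71 to 7.75 in hypoxia + PBM and 6.69 to 8.33 in hypoxia. The difference between the changes of the link proteins was not tested.

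Tenascin-R had a change close in size to that of Hapln1 but did not pass the test. Tnr was at 8.10, 6.32, 8.26, 6.70 and 6.93 FPKM in the hypoxia + PBM libraries, against 5.16, 5.23, 5.98, 6.48 and 6.30 FPKM in the hypoxia libraries. Replicates 1 and 3 of hypoxia + PBM were the highest, and the groups overlapped by a single pair: hypoxia replicate 4 lay above hypoxia + PBM replicate 2. The means were 7.26 ± 0.867 FPKM in hypoxia + PBM and 5.83 ± 0.607 FPKM in hypoxia (SD, n = 5 each). The log2 change was 0.27 ± 0.078 (SE; 95% interval 0.11 to 0.44; limma adjusted p = 0.0790). At 3087 to 5951 reads per library, counting error was small beside this spread. In the authors' deposited table the q-value of Tnr was 0.00531, with a fold change of 1.25. Under limma-voom on recovered reads, where 4.12% of all tested genes were called, Tnr was called as well (log2 change 0.32 ± 0.078 SE, limma-voom adjusted p = 0.0318). That was the only call of Tnr among 8 alternative fits on all 10 libraries. Tnr was called in 0 of the 10 leave-one-library-out fits (limma adjusted p from 0.0559 to 0.172).

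**Figure D2:**
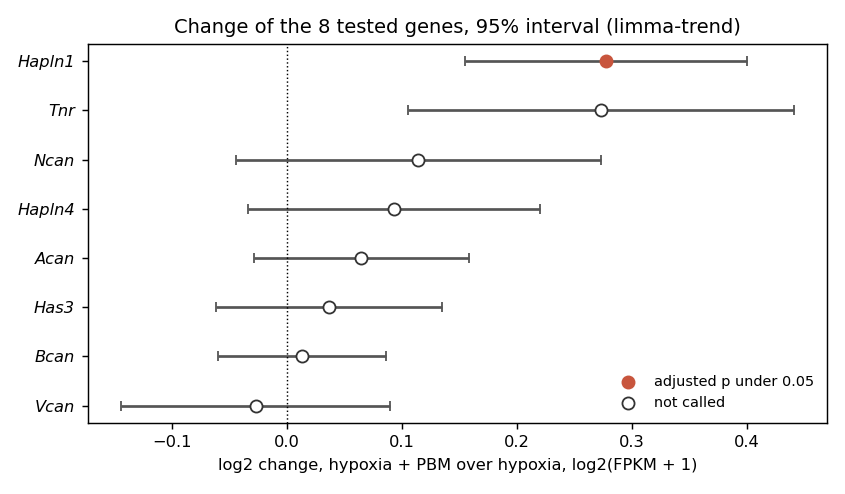
Log2 change between the groups, in log2(FPKM + 1) and positive where hypoxia + PBM is higher (x axis), for the 8 tested genes (y axis), with 95% intervals from limma-trend; the filled point is called at an adjusted p under 0.05. The intervals of Hapln1 (0.15 to 0.40) and Tnr (0.11 to 0.44) lie above 0, and those of the other 6 genes include 0.

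None of the 4 lecticans passed the test. Acan, which carries most of the chondroitin sulfate of cortical nets, was at 0.343, 0.222, 0.288, 0.245 and 0.273 FPKM in hypoxia + PBM and at 0.145, 0.197, 0.213, 0.278 and 0.261 FPKM in hypoxia. The means were 0.274 ± 0.0459 FPKM in hypoxia + PBM and 0.219 ± 0.0531 FPKM in hypoxia (SD, n = 5 each), and hypoxia replicates 4 and 5 lay inside the hypoxia + PBM range. Its log2 change was 0.065 ± 0.043 (SE; 95% interval -0.029 to 0.16; limma adjusted p = 0.445), on a scale where the pseudocount of 1 understates changes at such a low level. The FPKM means stood in a ratio of 1.26, and the authors' deposited table gave 1.26 with a q-value of 0.388. Only 54 to 96 reads per library in hypoxia + PBM and 33 to 68 in hypoxia were behind these levels. Counting alone gives a coefficient of variation of 11.7% at the depth of the hypoxia + PBM libraries and 13.6% in hypoxia, against observed ones of 16.7% in hypoxia + PBM and 24.3% in hypoxia. No difference in Acan was detectable at this depth and spread.

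Brevican differed by less than the spread between libraries. Bcan was at 51.3, 53.9, 53.2, 49.3 and 49.5 FPKM in hypoxia + PBM and at 51.9, 50.1, 50.4, 52.4 and 50.0 FPKM in hypoxia. Its log2 change of 0.013 had a 95% interval from -0.059 to 0.086 (limma adjusted p = 0.869), so that this interval leaves out the change of 0.28 found for Hapln1. Bcan also had the smallest spread of the 9 genes, with a coefficient of variation of 4.06% in hypoxia + PBM and 2.18% in hypoxia.

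Neurocan, which binds tenascins and cell adhesion molecules on neurons, was at 29.5, 26.8, 29.3, 26.0 and 29.9 FPKM in hypoxia + PBM and at 24.4, 21.5, 28.2, 29.4 and 27.3 FPKM in hypoxia. Hypoxia replicates 1 and 2 were below every hypoxia + PBM library, and the other 3 hypoxia libraries lay within the hypoxia + PBM range. The log2 change of Ncan was 0.11 ± 0.073 (SE; 95% interval -0.044 to 0.27; limma adjusted p = 0.425). Versican was at 1.05, 0.754, 1.03, 0.848 and 0.851 FPKM in hypoxia + PBM and at 0.966, 0.966, 0.803, 1.00 and 0.964 FPKM in hypoxia. Its hypoxia + PBM libraries spread on both sides of the hypoxia libraries, and the log2 change was -0.027 ± 0.054 (SE; 95% interval -0.14 to 0.090; limma adjusted p = 0.827).

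The makeup of the lectican pool was described by the share of each gene in their summed FPKM. Bcan held 63.6% ± 1.78 of the sum in hypoxia + PBM and 65.2% ± 2.59 in hypoxia (SD, n = 5 each). Ncan held 35.0% ± 1.67 in hypoxia + PBM and 33.3% ± 2.63 in hypoxia. Vcan held 1.12% ± 0.143 in hypoxia + PBM and 1.20% ± 0.119 in hypoxia, and Acan 0.339% ± 0.0523 in hypoxia + PBM and 0.278% ± 0.0605 in hypoxia (SD, n = 5 each). The ranges of the groups overlapped for each of these 4 shares. For the neighbouring genes Hapln1 and Vcan, the ratio in FPKM was 6.06 ± 0.845 in hypoxia + PBM and 4.59 ± 0.440 in hypoxia (SD, n = 5 each), with overlapping ranges of 4.76 to 6.82 in hypoxia + PBM and 4.14 to 5.32 in hypoxia. For the neighbouring genes Hapln4 and Ncan it was 1.25 ± 0.0948 in hypoxia + PBM and 1.27 ± 0.106 in hypoxia (SD, n = 5 each).

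The hyaluronan synthases were near the floor of the measurement. Has3 was at 0.178, 0.108, 0.243, 0.233 and 0.197 FPKM in hypoxia + PBM and at 0.208, 0.114, 0.224, 0.112 and 0.153 FPKM in hypoxia. The groups overlapped over most of their ranges, and the log2 change was 0.037 ± 0.046 (SE; 95% interval -0.062 to 0.13; limma adjusted p = 0.708). At such a low level the pseudocount of 1 compresses both the change and its interval. With a pseudocount of 0.1 the log2 change of Has3 was 0.16 ± 0.19, and under limma-voom it was 0.27 ± 0.27 (SE). Neither fit called Has3. Between 21 and 52 reads per library supported Has3 in hypoxia + PBM and between 22 and 43 in hypoxia. Has2, the main synthase of developing tissues, had 1 to 8 reads per library in hypoxia + PBM and 1 to 10 in hypoxia. It was not tested by limma-trend because it stayed under 0.1 FPKM in every library. Its reads summed to 26 in hypoxia + PBM, a rate of 0.153 reads per 1000000 (exact Poisson 95% interval 0.10 to 0.224), and to 33 in hypoxia, a rate of 0.209 reads per 1000000 (0.144 to 0.293). These intervals cover counting error only, and they overlap, so no difference in Has2 was detectable at this depth.

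Of 79 tested genes in 5 further lists, those that build, cut or read the matrix, 4 were called, or 5.06%, beside the 2.85% of all tested genes. At an unadjusted p under 0.05 there were 21 of the 79, or 26.6%, beside 19.6% of all tested genes, the background for each unadjusted count given here. Of 14 tested further matrix and link genes, 1 was higher and none lower, 4 had an unadjusted p under 0.05 and the median log2 change was 0.044. The called gene was Cspg4, the NG2 proteoglycan of oligodendrocyte precursors and pericytes, at 1.43 ± 0.231 FPKM in hypoxia + PBM and 0.912 ± 0.135 FPKM in hypoxia (SD, n = 5 each; log2 change 0.34, limma adjusted p = 0.0225). At this level the pseudocount of 1 understates the change of Cspg4, which was 0.59 with a pseudocount of 0.1 and 0.65 under limma-voom. Cspg4 lost its call without hypoxia + PBM replicate 1 (limma adjusted p = 0.0579). Hapln2, the link protein of nodes of Ranvier and the neighbour of Bcan, had a log2 change of 0.11 ± 0.078 (SE). Hapln3, the neighbour of Acan, had one of -0.10 ± 0.053 (SE), and neither passed the test. Hapln3 was at 0.0924 ± 0.0341 FPKM in hypoxia + PBM and 0.176 ± 0.0939 FPKM in hypoxia (SD, n = 5 each). At such a low level the pseudocount of 1 understates changes. Of 23 tested genes for chondroitin sulfate chains, none was called in the reported limma-trend fit, 4 had an unadjusted p under 0.05, and the median was -0.014. The smallest p of that list belonged to Xylt2, a xylosyltransferase that starts the chain, at 5.73 ± 0.188 FPKM in hypoxia + PBM and 4.88 ± 0.390 FPKM in hypoxia (SD, n = 5 each; log2 change 0.20, limma adjusted p = 0.0567). Xylt2 was called in 3 of 8 alternative fits on all libraries and in 1 of the 10 leave-one-library-out fits. Those 3 were a minimum of 1 FPKM (limma adjusted p = 0.0452), upper-quartile scaling (0.0471) and limma-voom (0.0469).

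Of 22 tested proteases and inhibitors, 2 were higher and 1 lower, 7 had an unadjusted p under 0.05, and the median log2 change was 0.061. Timp4, a tissue inhibitor of metalloproteinases, was higher, at 11.7 ± 0.423 FPKM in hypoxia + PBM against 9.33 ± 0.438 FPKM in hypoxia (SD, n = 5 each; log2 change 0.30, limma adjusted p = 0.00464). Ctss, the microglial protease cathepsin S, was lower, at 65.3 ± 5.61 FPKM in hypoxia + PBM against 83.1 ± 5.97 FPKM in hypoxia (SD, n = 5 each; log2 change -0.35, limma adjusted p = 0.0138). Of 12 microglia markers 1, Trem2, was called lower and 11 were not called, 4 had an unadjusted p under 0.05, and 2 had a positive log2 change. Their sum spanned overlapping ranges of 286 to 349 FPKM in hypoxia + PBM and 317 to 369 FPKM in hypoxia. The part of these markers in the change of Ctss was not tested. Timp4 and Ctss kept their calls through all 10 leave-one-library-out fits, but not with the striatal marker mean described further on as a covariate. Adamts8, a metalloproteinase of a family that cleaves lecticans, was at 0.581 ± 0.0882 FPKM in hypoxia + PBM and 0.384 ± 0.0399 FPKM in hypoxia (SD, n = 5 each; limma adjusted p = 0.0472), and was called in 2 of those 10 fits, its limma adjusted p reaching 0.113 when hypoxia + PBM replicate 1 was left out. Its call was also lost with a pseudocount of 0.1 (limma adjusted p = 0.0538), under limma-voom (0.0505) and with the replicate block (0.0767). Of 4 tested genes of hyaluronan breakdown none was called in the reported limma-trend fit, 2 had an unadjusted p under 0.05, and the median log2 change was 0.11. Of 16 receptors of the matrix none was called in that fit either, 4 had an unadjusted p under 0.05, and the median was 0.047. The smallest p of these lists belonged to the hyaluronidase Cemip2 (log2 change 0.17, limma adjusted p = 0.0534) and to the receptor phosphatase gene Ptprd (log2 change 0.20, limma adjusted p = 0.133). Cemip2 was called under upper-quartile scaling (limma adjusted p = 0.0439) and limma-voom (0.0393), and in 0 of the 10 leave-one-library-out fits.

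**Figure D3:**
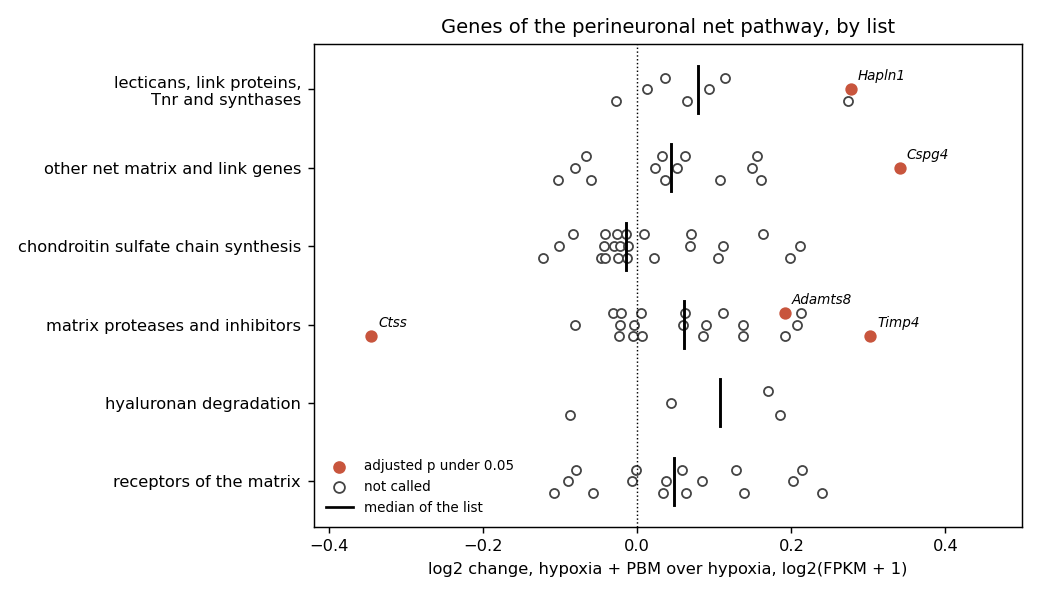
Log2 change of hypoxia + PBM over hypoxia (x axis) for each tested gene of the 6 lists of net genes (y axis); filled points are called at an adjusted p under 0.05 and vertical bars are list medians. Hapln1, Cspg4, Timp4 and Adamts8 lie to the right of 0 among the called genes and Ctss to the left, and most open points lie within 0.2 of 0.

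Markers of cortical cells were present in all libraries, and some moved with the groups. Beside the counts below, 2.85% of all tested genes were called and 19.6% had an unadjusted p under 0.05. Of 11 markers of cortical excitatory neurons none was at 0 and none was called by limma-trend (3 at an unadjusted p under 0.05), with sums of 625 to 657 FPKM in hypoxia + PBM and 613 to 670 FPKM in hypoxia. Of 12 markers of parvalbumin interneurons, 1 was called higher and 1 lower, 6 had an unadjusted p under 0.05, and none was at 0. Pvalb itself was at 67.6 ± 3.56 FPKM in hypoxia + PBM and 62.2 ± 4.77 FPKM in hypoxia (SD, n = 5 each; log2 change 0.12, limma adjusted p = 0.229). The potassium channel gene Kcns3, named after its values were seen, was higher (log2 change 0.30, limma adjusted p = 0.0306; called in 4 of the 10 leave-one-library-out fits), and Tac1, also a striatal marker, was lower. The list was split, with a positive log2 change in 8 of the 12. Pvalb, Kcnc2 (0.23), Syt2 (0.22) and Erbb4 (0.19) were higher at an unadjusted p under 0.05 without a call. Slc32a1 (-0.084), Gad2 (-0.062) and Gad1 (-0.0049) were lower, also without a call. The summed level of this list spanned 262 to 294 FPKM in hypoxia + PBM and 270 to 296 FPKM in hypoxia. Without Tac1, left out after its values were seen, the sum of the other 11 was 257 ± 12.1 FPKM in hypoxia + PBM and 248 ± 8.76 FPKM in hypoxia (SD, n = 5 each), with overlapping ranges of 244 to 272 FPKM in hypoxia + PBM and 235 to 257 FPKM in hypoxia. Of 12 oligodendrocyte precursor markers 1, Cspg4, was called higher and 3 had an unadjusted p under 0.05. Their sum spanned 109 to 125 FPKM in hypoxia + PBM and 102 to 121 FPKM in hypoxia. Of 12 oligodendrocyte markers none was called by limma-trend (2 at an unadjusted p under 0.05), and their sum spanned 1365 to 1554 FPKM in hypoxia + PBM and 1395 to 1659 FPKM in hypoxia. Of 12 astrocyte markers 3 were called higher and none lower, and 7 had an unadjusted p under 0.05. The list was split: 6 of the 12 had a positive log2 change, and the median was 0.0091. The astrocyte sums were 1021 to 1098 FPKM in hypoxia + PBM and 1004 to 1064 FPKM in hypoxia. Of 13 endothelial and mural markers 3 were called higher, 7 had an unadjusted p under 0.05, and 12 had a positive log2 change. Their sums of 91.0 to 105 FPKM in hypoxia + PBM and 70.8 to 90.8 FPKM in hypoxia do not overlap. None was called by limma-trend of 10 other interneuron markers (4 at an unadjusted p under 0.05), 10 meningeal fibroblast markers (3) and 4 haemoglobin genes (0). Of 10 thalamic and septal markers 1, Ramp3, was called higher and 3 had an unadjusted p under 0.05. The part of these cell classes in the change of Hapln1 was not tested.

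Markers of striatal projection neurons, a neighbouring tissue, stood furthest apart. Of 17 such markers, 15 were called lower in hypoxia + PBM, and their mean on the log2(FPKM + 1) scale spanned 2.66 to 3.37 in hypoxia + PBM and 3.48 to 4.21 in hypoxia. With that mean as a covariate, the log2 change of Hapln1 was 0.29 ± 0.11 (SE; limma adjusted p = 0.781), as large as without it but with a standard error that was 0.057 without it. Tnr had 0.10 ± 0.14 in that fit (SE; limma adjusted p = 0.982). Of the called pathway genes Timp4 had 0.29 ± 0.081 (SE, limma adjusted p = 0.629) and Cspg4 0.17 ± 0.12 (0.925). Adamts8 had 0.17 ± 0.091 (0.884) and Ctss -0.12 ± 0.092 (0.938). The estimates of Cspg4 and Ctss were at least 1.5 times smaller than without the covariate, a difference that was not tested. No gene at all was called there by limma-trend, and 843 of the 14406 tested genes had an unadjusted p under 0.05. Because the marker mean separates the groups without overlap, its part and that of photobiomodulation cannot be told apart in these libraries.

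**Figure D4:**
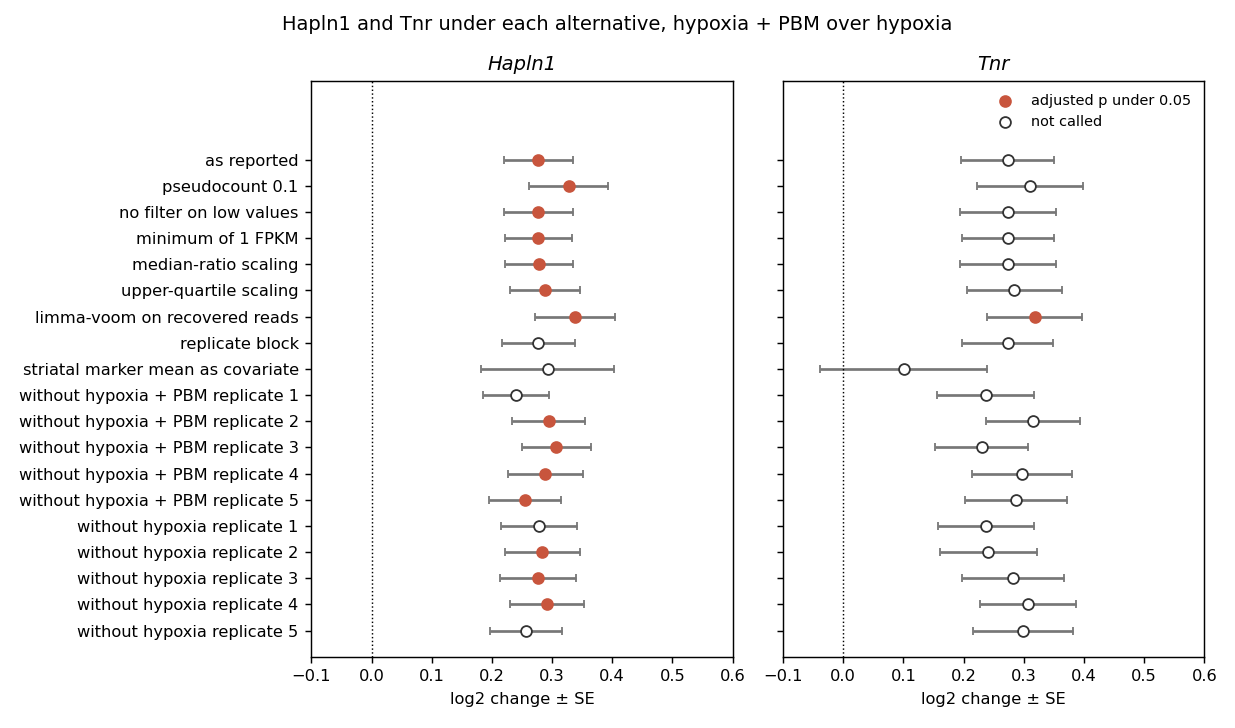
Log2 change ± SE of hypoxia + PBM over hypoxia (x axis) for Hapln1 (left) and Tnr (right) as reported and under each alternative fit (y axis); filled points are called at an adjusted p under 0.05. Hapln1 stays at or above 0.24 in every fit shown. With the striatal marker mean as a covariate Hapln1 has 0.29 ± 0.11 and Tnr 0.10 ± 0.14 (SE). That mean separates the groups without overlap, and the difference between the 2 genes was not tested.

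Likeness of pattern was read from the deviations of log2(FPKM + 1) from the group mean in the 10 libraries, as a description over genes with a mean of at least 1 FPKM, 11393 in number. The genes most like Acan were Slc29a2 (Pearson r = 0.947), Cntn1 (0.943) and Elavl3 (0.941). Those most like Hapln1 were Rmi1 (Pearson r = 0.973), Mvk (0.946) and Rnaset2a (0.935), none of which was called between the groups. Within the set, Acan was most like Tnr (Pearson r = 0.886), with hypoxia + PBM replicates 1 and 3 high and hypoxia replicates 1 and 2 low in both genes. Hapln1 had a Pearson r of 0.33 with Acan and 0.075 with Tnr over the same deviations. These values share library depth and dissection, and rest on 10 libraries. The genes named outside the set were picked as the highest correlations over the 11393 genes, and no test was made of them. Acan itself rested on 33 to 96 reads per library.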

How the data were processed

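RNA of 10 prefrontal cortex libraries was measured, 5 hypoxia + PBM and 5 hypoxia, grouped by their labels. Per the labels' protocols, TRIzol RNA went into the VAHTS Universal V10 kit, with no statement on strand. HISAT2, HTSeq and fastp 1.0 are named with build GRCm39, per the submitters' processing notes. The authors deposited FPKM per gene and library, although the table is named as raw counts. Per the file headers, they also gave group means of size-factor-scaled reads (a signal), a linear fold change, a log2 fold change, and p-values and q-values; these are quoted only as the authors' deposited table.

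The planned count test gave way to limma-trend (limma 3.58.1, R 4.3.3) on log2(FPKM + 1), as fixed for FPKM. Genes needed 0.1 FPKM in at least 5 libraries, which 8 of the 9 genes met; Has2 did not. Whole reads were recovered by solving FPKM against the authors' group means (100% of values whole within 0.01 reads) and used for depth and limma-voom. Exact tests used scipy 1.17.1. Scripts were tested on simulated data. Alternatives changed the pseudocount, filter, scaling, test, block, covariate or libraries. All 9 genes were described; from each further pathway list up to 4 called genes with the smallest p were named, or the 1 with the smallest p, and marker lists are given by counts and sums. The genes and lists were chosen with earlier results of these data known. Neighbouring genes and promoters came from RefSeq on GRCm38.p6, another build than the authors', and Hapln4, Has2 and Has3 have no promoter shown.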

Additional observations from a re-analysis of the deposited data

Results flagged for a closer look

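Vcan in hypoxia replicate 3 lay apart from its group, at 0.803 FPKM where the other 4 hypoxia libraries were between 0.964 and 1.00 FPKM; its gap to the nearest exceeded Dixon's 95% limit. It was the only such value among 18 groups of 5 examined, and chance flags about 1 in 20 groups.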

How the results depend on the processing

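Hapln1 was the only called gene of the set in the reported fit, and its direction held in all 18 alternative fits. It stayed called with a pseudocount of 0.1, without a filter, with a minimum of 1 FPKM, under median-ratio and upper-quartile scaling and under limma-voom. The number of called genes of the set was 2 under limma-voom, where 4.12% of all genes were called and Tnr joined (limma-voom adjusted p = 0.0318). It was 0 with the replicate block, 0 with the striatal covariate and 0 to 1 without 1 library. In the fit with the covariate 1 of the 8 had an unadjusted p under 0.05, beside 843 of all 14406 tested genes. Over all genes, 411 calls became 256 with the replicate block and 0 with the striatal covariate (843 at an unadjusted p under 0.05), and 189 to 538 without 1 library. With the covariate Bcan and Hapln4 changed sign, to -0.067 and -0.084; neither was called in any fit. Without 1 library Bcan spanned -0.0038 to 0.028 and Vcan -0.054 to 0.0025. Over the 5 replicate numbers, the deviations of same-numbered libraries correlated at -0.072 to 0.21. Only hypoxia + PBM replicate 2 (0.21) matched its own number best among the hypoxia libraries. Such correlations cannot show whether libraries were handled in pairs, and the reported fit used no pairs. With the block Hapln1 had a limma adjusted p of 0.0617. The cause of the lost calls was not tested. Depth limits Acan, Has3 and Has2.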
